A study of Rattus norvegicus with 8 samples.

Results

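miR-378 (rno-miR-378 on the array) and its partner arm miR-378* (rno-miR-378*) are the products of a single hairpin, and both were followed across pancreatic islets of adult and 10-day-old rats. They were taken by their names from the non-control features of the arrays, and they are 2 of the 677 rat miRNAs that the array measures. The adult islets came from male Sprague Dawley rats of 3 months (4 arrays), and the P10 islets from Sprague Dawley rats aged 10 days, whose sex the labels do not give (4 arrays). The labels call all of them control animals and each array a biological replicate, and do not say how many rats gave the islets of an array. The pair was chosen by its adult and P10 signals on these same arrays, which were already known, so its own difference between the ages is described here with no test.

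As background, a miRNA is a short RNA that lowers the output of mRNAs which pair with its seed, the bases 2 to 8 counted from its 5′ end. The gene of miR-378 is known to lie in an intron of Ppargc1b, which encodes PGC-1β, a coactivator of mitochondrial and fatty acid oxidation genes. In mice both arms are known as regulators of energy balance, and the miRNA is abundant in muscle and in brown fat. The endocrine part of the pancreas is gathered in islets, made up largely of beta cells, which release insulin and depend on mitochondrial metabolism to sense glucose.

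The sequences of the locus are shown because a second hairpin, Mir3557, is annotated on the opposite strand of the same stretch. Its arms have probes on the array as well. They come from RefSeq (assembly GRCr8), with the seed in capitals, and both arms of miR-378 were matched. miR-378 lies at chr18:57128925-57128945 on the minus strand and miR-378* at chr18:57128962-57128983 on the minus strand, inside the annotated span of Ppargc1b. miR-3557-5p lies at chr18:57128924-57128945 and miR-3557-3p at chr18:57128962-57128983, both on the plus strand.
miR-378 (now miR-378a-3p): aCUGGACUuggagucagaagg
miR-378* (now miR-378a-5p): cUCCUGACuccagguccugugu
miR-3557-5p: gCCUUCUGacuccaaguccagu
miR-3557-3p: aCACAGGAccuggagucaggag
The 2 arms of miR-378 are separated by 16 bases on the genome and form 18 base pairs with each other (RNAduplex). No other mature rat miRNA in the RefSeq table (693 names) had the seed of either arm. The complement of miR-378 is contained in miR-3557-5p over all 21 bases, and that of miR-378* in miR-3557-3p over all 22 bases. The assignment of the array's names to the 3p and 5p arms follows the history of the names, because the files hold no probe sequences.

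The antisense hairpin gave no signal to set beside miR-378. Neither miR-3557-5p nor miR-3557-3p was well above background on any of the 8 arrays, which is the scanner software's call that a feature stands clear of its background. The probes of miR-3557-5p ran from -6.98 to -0.05 scanner units, against 38.6 to 275 for those of miR-378, to which it is complementary. The probes of miR-3557-3p ran from -2.11 to 17.3 units, against 4.68 to 41.4 for those of miR-378*, so these ranges overlapped.

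miR-378 was measured by 2 probes, each printed as 10 features, and none of these features was saturated. Its brighter probe had 86.7, 94.7, 105.5 and 89.3 scanner units on adult replicates 1 to 4, against 119.2, 79.6, 275 and 164 units on P10 replicates 1 to 4. On this unscaled signal the adult arrays lay close together and the P10 arrays far apart, and the ages overlapped, since P10 replicate 2 was below every adult array. The means were 94.1 ± 8.33 units in adult and 159.4 ± 84.4 units in P10 (SD, n = 4 each). The brighter probe was well above background on all 8 arrays and the dimmer one on all but adult replicate 2, where 5 of its 10 features carried the call.

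Within an array the features of the brighter probe scattered little. The standard error of the probe's mean over its features was 4.01, 3.58, 2.25 and 2.44 units on P10 replicates 1 to 4 and at most 5.18 units on an adult array. The coefficient of variation between features lay between 2.32% and 18.9%. These errors cover the features of a single array and not the brightness of whole arrays.

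**Figure D1:**
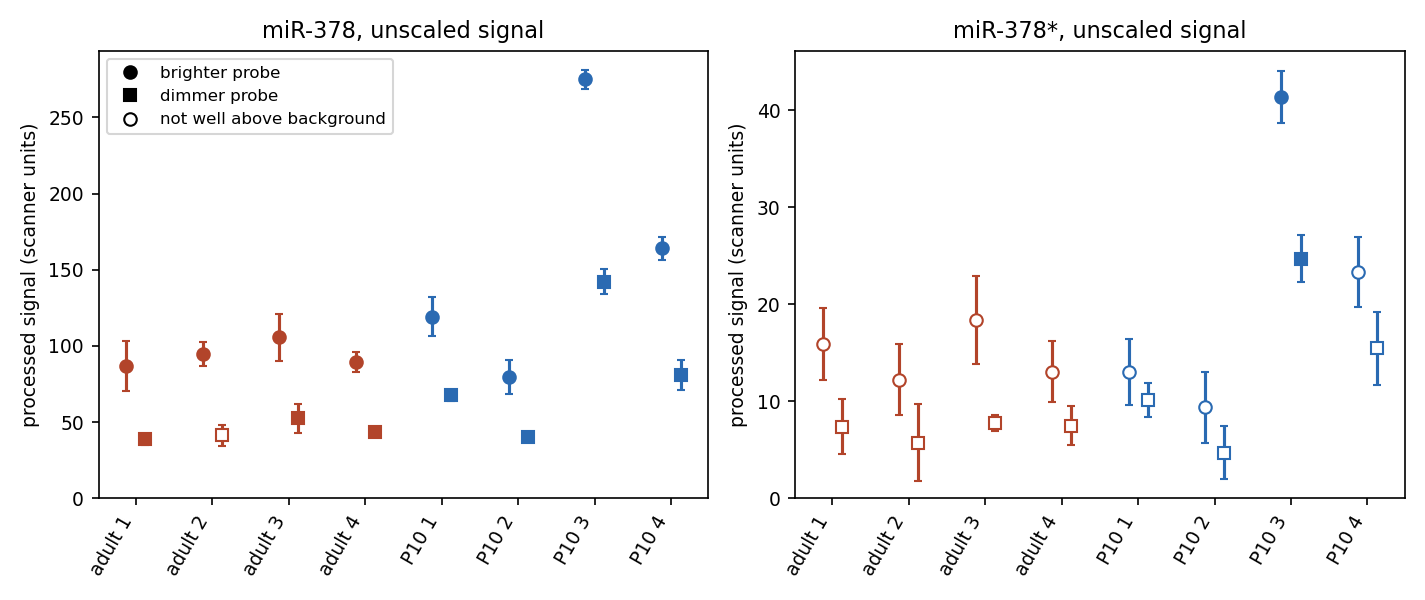
Unscaled processed signal (scanner units, axis from 0) of the brighter (circles) and dimmer (squares) probe of miR-378 and miR-378* on each array, adult in red and P10 in blue, with bars for the SD between features and open symbols where the probe was not well above background. P10 replicate 3 stood highest for both arms, at 275 and 41.4 units on the brighter probes, and on the brighter probe of miR-378 P10 replicate 2 lay below all adult arrays.

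The miRNA probes differed in brightness between arrays, so signals were divided by each array's 75th percentile over 278 probes well above background everywhere. The spike-in controls differed little, with a median log2 signal of 13.32 to 13.59 on adult arrays and 13.40 to 13.58 on P10 arrays. Why the percentile varied more was not tested. The percentile was 1284 to 1677 units on adult arrays and 388, 440, 989 and 1690 units on P10 replicates 1 to 4. Per adult array 218 to 248 miRNAs were well above background, and per P10 array 188 to 238. The 8 arrays shared a slide on which each age filled a column of its own, so that age and position across the slide cannot be told apart. In what follows a level is the log2 of this scaled signal, and fewer cells that hold a miRNA cannot be told apart from less of it per cell.

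On the scaled level miR-378 was lower in adult islets. It stood at -3.96, -3.89, -3.99 and -3.85 on adult replicates 1 to 4, against -1.70, -2.47, -1.85 and -3.37 on P10 replicates 1 to 4. All adult arrays were below all P10 arrays, and P10 replicate 4 came nearest to them. The mean level was -3.92 ± 0.07 in adult and -2.35 ± 0.76 in P10 (SD, n = 4 each), a difference of -1.58 ± 0.34 (log2, SE from the limma fit), or a 2.98-fold lower level in adult. Ages without overlap were found for 45.8% of the 238 miRNAs tested, and for 20.2% with adult below P10, so nothing is read from the absence of overlap. P10 arrays spanned 1.66 log2 units (3.17-fold) and adult arrays 0.14 log2 units.

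The size of that difference depended on the scaling. Without scaling it was -0.62 and with spike-in scaling -0.55, and in both settings the ages overlapped, with P10 replicate 2 below every adult array. The bulk of miRNAs moved with the scaling as well: the median difference of the 238 tested was -0.01 as reported here, 0.94 without scaling and 1.00 with spike-in scaling. These scalings change only a factor per array, which moves all miRNAs alike apart from those at the floor. By construction, then, miR-378 stayed at nearly the same place relative to the median, -1.56 here and -1.55 in both other settings. With normexp background correction followed by quantile normalization, which by itself gave -1.33, it was at -0.86, or -0.95 relative to the median.

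The dimmer probe of miR-378 gave the same order of arrays between and within the ages, apart from the adult arrays among themselves. Its level was -5.13, -5.09, -5.00 and -4.88 on adult replicates 1 to 4, against -2.52, -3.44, -2.80 and -4.38 on P10 replicates 1 to 4. Its difference was -1.74, with P10 replicates 1 and 3 again highest and P10 replicate 4 lowest of its age. The gap between the probes was 1.10 ± 0.09 log2 units in adult and 0.94 ± 0.09 in P10 (SD, n = 4 each).

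In the authors' deposited table, which holds log2 values that share a common distribution over arrays, miR-378 had 6.39, 6.44, 6.39 and 6.48 on adult replicates 1 to 4, against 8.30, 7.40, 8.29 and 6.81 on P10 replicates 1 to 4. The order of the P10 arrays was that of the scaled level, and all P10 arrays were above all adult arrays. The difference computed from these values was -1.28.

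**Figure D2:**
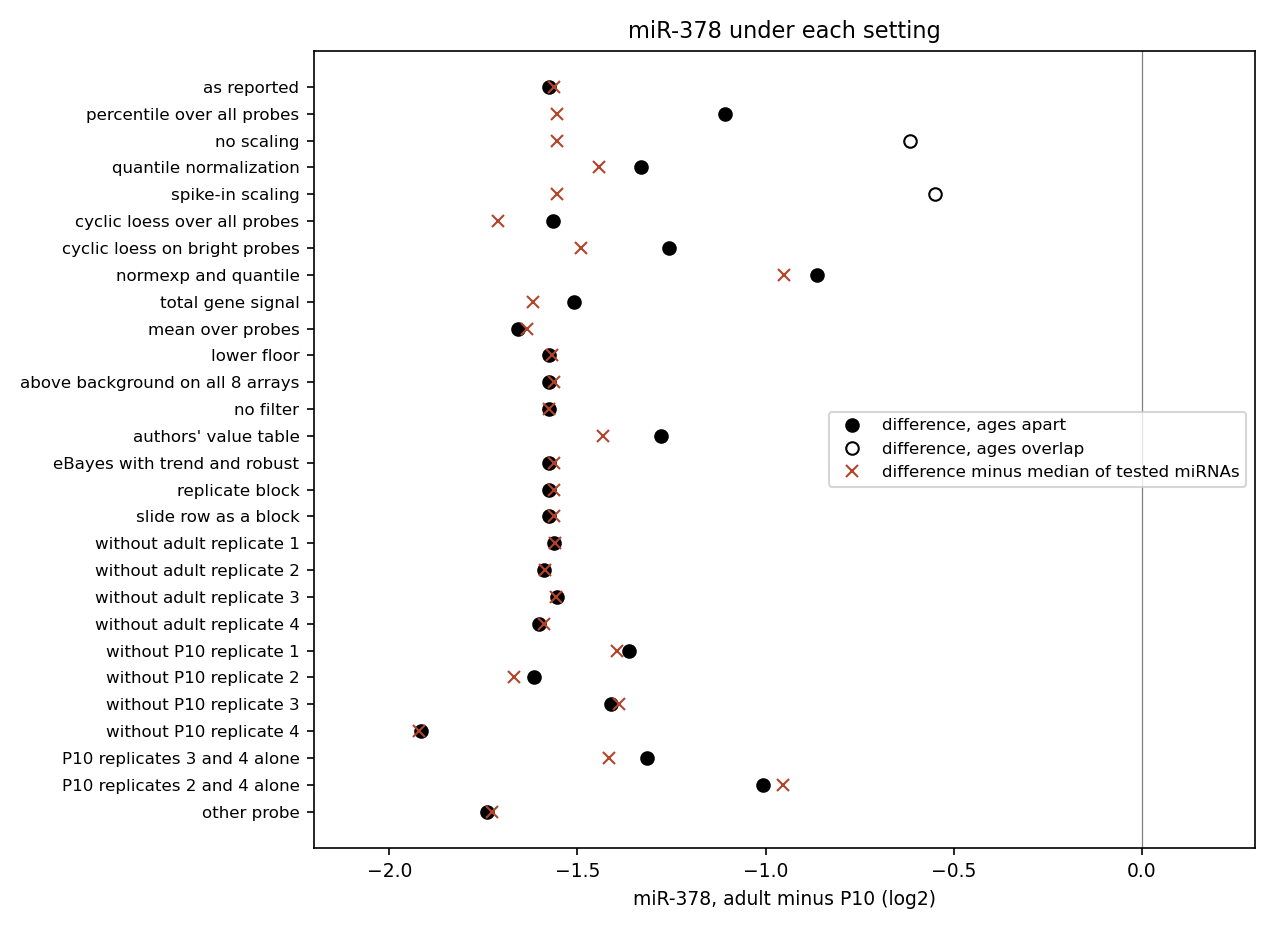
Difference of miR-378 between adult and P10 islets (log2, adult minus P10) under the reported and 27 other settings, as circles (open where the ages overlap), with crosses for the same difference minus the median of all tested miRNAs. Every circle is below 0, from -1.92 without P10 replicate 4 to -0.55 with spike-in scaling, and the crosses run from -1.92 to -0.95. Settings that only leave out arrays, or leave the values as they were, could not change the sign.

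The partner arm miR-378* was at the edge of detection. Its brighter probe had 15.9, 12.2, 18.4 and 13.05 units on adult replicates 1 to 4, against 12.98, 9.36, 41.4 and 23.3 units on P10 replicates 1 to 4. P10 replicate 3 alone was well above background, with 10 of 10 features of each probe carrying the call, and the other 7 arrays were not. That array was also the one with the highest unscaled miR-378, and P10 replicate 4 was the second highest for both arms. miR-378* was therefore not among the 238 miRNAs tested, which needed that call on 4 or more of the 8 arrays.

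After scaling, miR-378* lay at the floor of -5.51 on all 4 adult arrays, against -4.90, the floor, -4.58 and the floor on P10 replicates 1 to 4. P10 replicate 1 was above the floor without being well above background. The floor stood for 8.55 scanner units on that array and for 28.3 to 36.9 units on adult arrays. Its unscaled 12.98 units were below those of adult replicates 1 (15.9) and 3 (18.4), so its place above adult came from the scaling. Only 1 of 4 P10 arrays and no adult array measured miR-378*, so no fold is given between the ages. Its difference on floored levels was -0.38, and this changed sign to 0.11 or 0.55 under the cyclic loess settings. The scanner software's own call per miRNA marked miR-378* as detected on adult replicates 1 and 3 and P10 replicate 3. In the authors' deposited table it had 4.52, 4.34, 4.55 and 4.40 on adult replicates 1 to 4, against 5.29, 4.69, 5.91 and 4.86 on P10 replicates 1 to 4.

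The miRNAs whose pattern over the 8 arrays was most like that of miR-378 were miR-214, miR-199a-3p, miR-93, miR-199a-5p and miR-365. Likeness was the root mean square difference of levels after each miRNA was centred on its own mean, over 163 miRNAs well above background on all arrays, whose median was 0.98 log2 units. It was 0.33 for miR-214, 0.36 for miR-199a-3p, 0.42 for miR-93, 0.43 for miR-199a-5p and 0.45 for miR-365. miR-199a and miR-214 are known from mesenchymal cells, miR-93 from a proliferation-linked cluster in an intron of Mcm7, and miR-365 from brown fat in mice. Their sequences are printed to show that none shares a seed with miR-378.
miR-214 (3p): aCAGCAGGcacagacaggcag
miR-199a-3p: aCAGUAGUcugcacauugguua
miR-93 (5p): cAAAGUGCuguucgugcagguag
miR-199a-5p: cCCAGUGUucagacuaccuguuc
miR-365 (3p): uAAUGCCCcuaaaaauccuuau
miR-214 had levels of -3.09, -2.98, -3.09 and -3.27 on adult replicates 1 to 4, against -1.41, -1.29, -1.22 and -1.94 on P10 replicates 1 to 4. Like miR-378 it was lowest in P10 on replicate 4, and its P10 arrays spread less. The differences between the ages were -1.64 for miR-214, -1.62 for miR-199a-3p, -1.72 for miR-93, -1.75 for miR-199a-5p and -1.31 for miR-365, close to the -1.58 of miR-378, by which they were chosen.

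miR-214 and both arms of miR-199a are also among the 5 mesenchymal markers. The summed level of those markers was 5.10 to 7.11 times an array's 75th percentile in adult, and 4.27, 4.78, 6.11 and 7.38 times on P10 replicates 1 to 4. Among all 238 miRNAs tested, 113 (47.5%) passed the test (limma, Benjamini-Hochberg adjusted p under 0.05), 65 higher (27.3%) and 48 lower (20.2%) in adult. Of the 5 markers, 1 was higher in adult, 3 were lower and 1 did not pass. The 3 lower ones, miR-214 and the arms of miR-199a, were not called without scaling or on spike-in scaling, nor was miR-199a-3p after cyclic loess over all probes, and the higher one, miR-143, lost its call in 19 of 26 alternatives, each of those that left out an adult array among them. The sum overlapped between the ages. It weighs miR-143 most, which had the highest mean level of the 5 markers in adult (2.50) and in P10 (1.57). The part of mesenchymal cells in the level of miR-378 was not tested.

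After scaling, markers of gut epithelium stood high on the same P10 arrays as miR-378. The summed level of miR-192, miR-194 and miR-215 was 0.280 to 0.508 times the array's 75th percentile in adult, and 7.27, 1.11, 13.5 and 2.37 times on P10 replicates 1 to 4. On scaled levels P10 replicates 1 and 3 were highest for both these markers and miR-378. The lowest P10 array on these levels was replicate 4 for miR-378 and replicate 2 for each gut marker. For miR-378 P10 replicate 4 lay above replicate 1 without scaling (-2.64 against -3.10) and with spike-in scaling (-2.62 against -3.17). These scalings change a factor per array, and P10 replicate 4 then lay above replicate 1 for the 3 gut markers too. All 3 gut markers were lower in adult by limma, where 20.2% of all tested miRNAs were. The limma adjusted p was 0.0107 for miR-192, 0.00418 for miR-194 and 0.00151 for miR-215. No adult array had miR-215 well above background. miR-192 was not called in 4 of 26 alternatives (without scaling, on spike-in scaling, after cyclic loess over all probes and without a filter), and miR-194 was not called on spike-in scaling. Of 164 miRNAs well above background on all arrays, 11 (6.71%) had P10 replicates 1 and 3 above replicates 2 and 4, and miR-378, miR-192 and miR-194 were among them. Without P10 replicates 1 and 3, where it stood highest in P10, miR-378 had a difference of -1.01. Leaving out the highest P10 arrays had to shrink the difference and could not make the ages overlap, so nothing is read from either. The part of gut epithelium in the result was not tested.

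**Figure D3:**
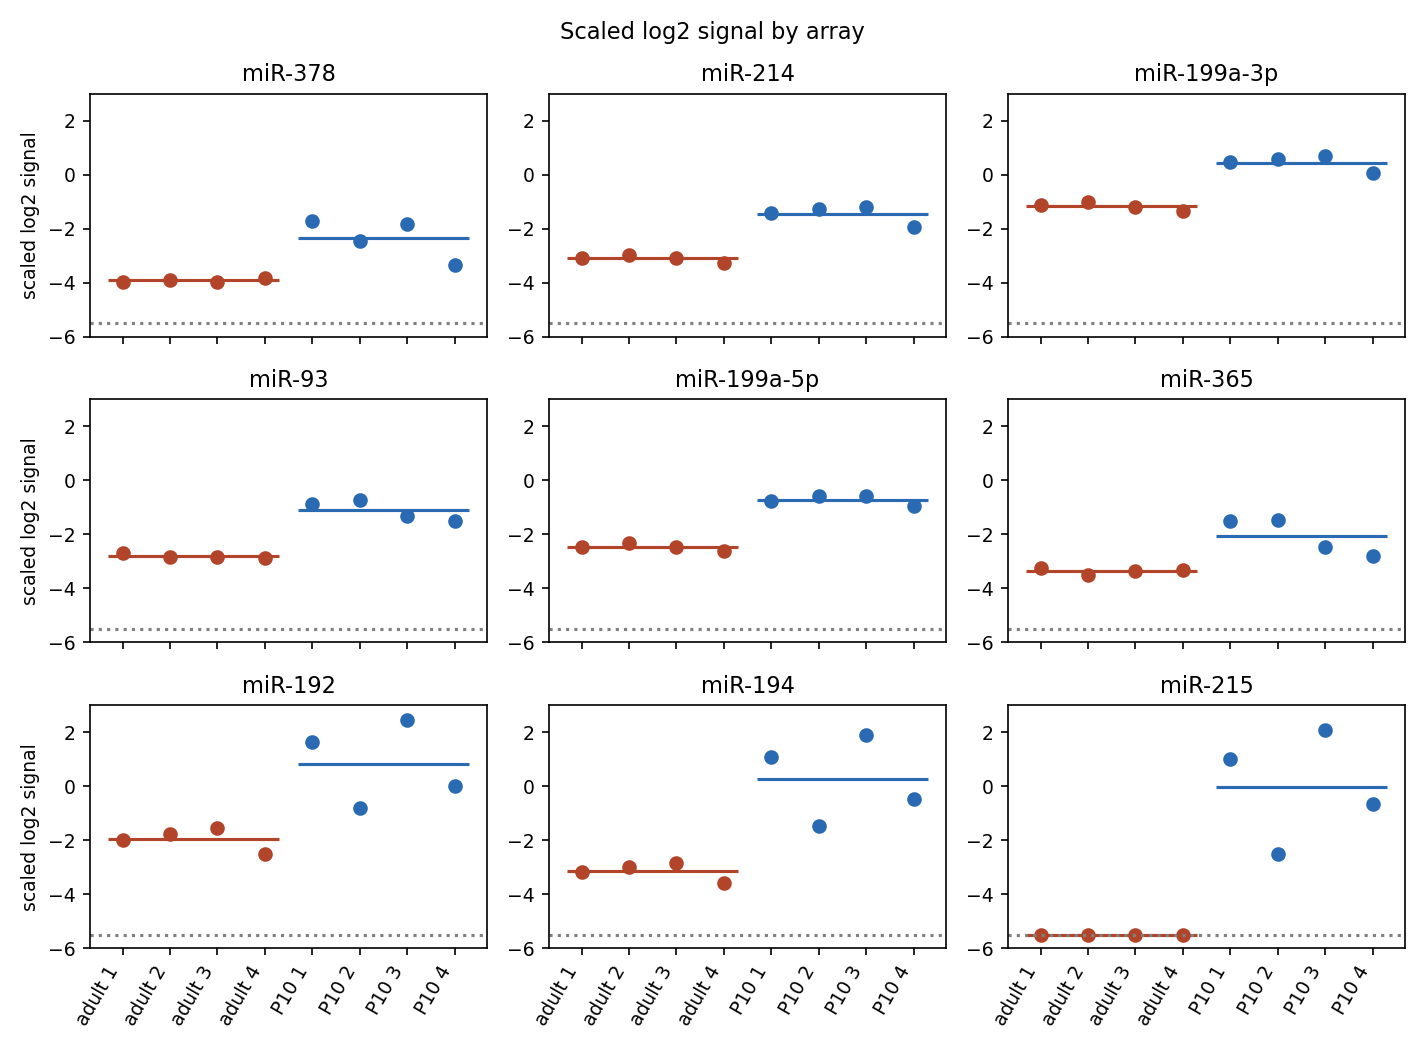
Level (scaled log2 signal) on each array of miR-378, of the 5 miRNAs most like it and of the 3 gut epithelium markers, adult in red and P10 in blue, with lines at the mean of each age and a dotted line at the floor. Adult levels of miR-378 lie within 0.14 log2 units of each other, while P10 replicates 1 and 3 are highest for miR-378 and for the gut markers.

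Markers of muscle and liver were mostly below detection. Of 7 striated muscle markers on the array, miR-1, miR-133a, miR-206, miR-208 and miR-208b-3p were not well above background on any array. miR-499 was so on 3 adult arrays and no P10 array, and miR-133b on 4 adult and 2 P10 arrays. The muscle markers summed to 0.191 to 0.238 in adult, and to 0.154, 0.154, 0.159 and 0.223 on P10 replicates 1 to 4, and liver miR-122 was at the floor on all 8 arrays.

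The islet label was checked against endocrine markers. Of 6 on the array, 5 were well above background on 4 or more arrays and were tested. All 5 were called higher in adult, where 27.3% of all tested miRNAs were. The untested miR-184 was well above background on 0 adult arrays and 1 P10 array. The sum of the 6 was 44.1 to 50.2 in adult and 11.9, 18.2, 25.6 and 26.0 on P10 replicates 1 to 4. The call of miR-375 (0.47) is not firm: it was lost in 15 of 26 alternatives, every one that left out an adult array among them, and in 4 more the difference turned negative. Calls were also lost in 16 alternatives for miR-7b, again without any 1 adult array among them, in 4 for miR-7a and in 2 for miR-153, and in none for miR-204. Acinar miR-216a, miR-216b-5p and miR-217 summed to 0.230 to 0.460 in adult and to 0.961, 0.801, 0.0807 and 0.0660 on P10 replicates 1 to 4. Among the other marker sets, both tested erythroid markers were called higher in adult (miR-144 in only 10 of 25 alternatives), 0 of 3 acinar, 0 of 5 leukocyte, 0 of 2 endothelial and 0 of 1 muscle markers passed limma's adjusted threshold, and none of the neuronal markers was well above background. At an unadjusted p under 0.05 limma had 0 of the acinar, leukocyte and endothelial markers and 1 muscle marker, miR-133b.

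Other miRNAs known to lie in introns of metabolic genes showed no difference past the threshold. The list held miR-33, which lies in the sterol regulator Srebf2, and miR-103 and miR-107, which lie in pantothenate kinase genes of coenzyme A synthesis, with their minor arms. Of 7 products on the array, 3 were tested and 0 passed limma's adjusted threshold, which 47.5% of all tested miRNAs passed. Of the 3 tested, 1, miR-107, had an unadjusted p under 0.05. The remaining 4, all minor arms, were not well above background on any array. Over all 238 miRNAs tested the split of 65 higher to 48 lower became 90 to 34 with the percentile over all probes, 58 to 17 with unscaled signals, 53 to 9 when scaled on spike-ins and 12 to 22 after cyclic loess over all probes.

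miR-33 stood at -4.11, -4.20, -4.04 and -4.29 on adult replicates 1 to 4, against -4.06, -4.04, -4.21 and -4.18 on P10 replicates 1 to 4, a difference of -0.04 ± 0.10 (SE, limma adjusted p = 0.777). Its ages overlapped, and only with cyclic loess on bright probes did it pass, as higher in adult (0.57). miR-103 stood at 0.50, 0.45, 0.43 and 0.40 on adult replicates 1 to 4, against -0.22, 0.12, 0.53 and 0.54 on P10 replicates 1 to 4. Its difference was 0.20 ± 0.18 (limma adjusted p = 0.406), with P10 replicates 1 and 2 low and replicates 3 and 4 above the adult arrays. miR-107 stood at 0.71, 0.69, 0.75 and 0.58 on adult replicates 1 to 4, against -0.20, 0.05, 0.50 and 0.50 on P10 replicates 1 to 4. Its difference was 0.47 ± 0.18 (limma adjusted p = 0.0582), every adult array lay above every P10 array, and it passed in 3 of 26 alternatives. miR-103 and miR-107 share a seed and differ near the 3′ end, so their signals may not be independent.
miR-103 (3p): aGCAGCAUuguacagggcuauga
miR-107 (3p): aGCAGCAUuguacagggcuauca
miR-33 (5p): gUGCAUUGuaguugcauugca

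Of 31 listed miRNAs in introns of other genes, 30 were on the array and 27 tested, of which 7 (25.9%) rose, 8 (29.6%) fell and 12 did not pass. These shares are near those of all tested miRNAs (27.3% and 20.2%), and the median difference was -0.01 in both. The largest differences among those that passed were 1.91 for miR-204, in an intron of Trpm3, 1.85 for miR-7a, -1.72 for miR-93 and 1.61 for miR-153. miR-93 was no longer called without scaling, on spike-in scaling and after cyclic loess over all probes, nor was miR-7a in 4 of 26 alternatives, among them quantile normalization and the authors' deposited table. miR-153 was not called without a filter or after cyclic loess over all probes.

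Among 18 miRNAs known from lipid, mitochondrial or glucose metabolism, 16 were tested. Of these 7 (43.8%) rose, 1 (6.25%) fell and 8 did not pass, against 27.3% higher and 20.2% lower of all tested. Their median difference was 0.32, against -0.01 for all tested, and miR-378 at -1.58 lay lower than all of them but miR-181a (-2.39). The largest increases were those of miR-29b (3.59), miR-29c (2.68) and miR-29a (2.66), known to act on matrix and insulin signalling genes. The calls of miR-181a and of the 3 miR-29 miRNAs were lost with cyclic loess over all probes.

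Of 9 miRNAs known from brown fat, 8 were on the array and 6 tested. Of these 2 (33.3%) rose, 3 (50%) fell and 1 did not pass, against 27.3% higher and 20.2% lower of all tested. miR-203 was at -3.15, and since it was well above background on only 1 of 4 adult arrays this size rests in part on the floor. miR-193 (-1.73) and its cluster partner miR-365 (-1.31) fell, and miR-455 rose (1.31). The call of miR-193 was lost in 15 of 26 alternatives, without any 1 adult array and without P10 replicate 1 or 2 among them, that of miR-365 in 4, and those of miR-455 and miR-203 after cyclic loess over all probes. On P10 replicates 1 to 4 miR-203 stood at -1.68, -2.98, -1.14 and -3.43, with replicates 1 and 3 the highest, as for miR-378. Other members of the list differed in this. P10 replicates 1 and 2 were highest for miR-193 (-0.51, -0.45, -2.53 and -2.63) and for miR-365, and replicates 3 and 4 for miR-455.

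**Figure D4:**
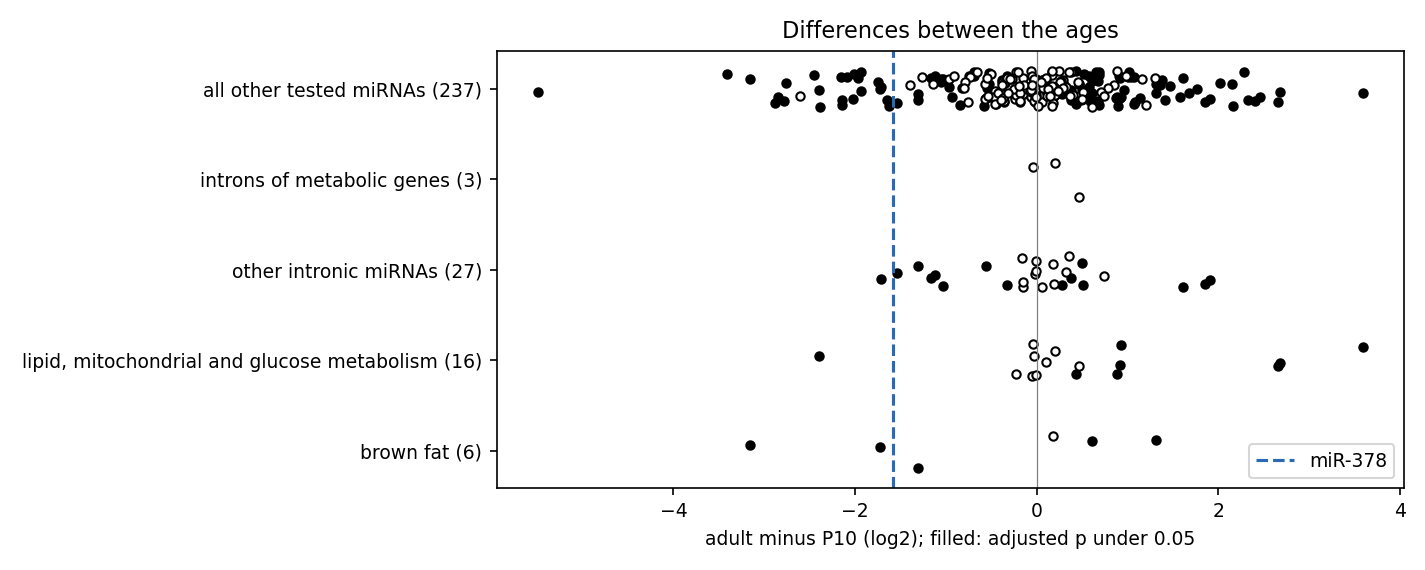
Difference between adult and P10 islets (log2, adult minus P10) of every tested miRNA, above 4 lists with the number tested in brackets, filled where limma's adjusted p was under 0.05, with a dashed line at miR-378 (-1.58). The 3 miRNAs in introns of metabolic genes lie between -0.04 and 0.47, right of the dashed line.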

How the data were processed

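Islet RNA from 4 adult and 4 P10 samples was measured on Agilent miRNA arrays in 1 colour, per the labels. The deposited files hold background-subtracted intensity values, which per the file headers were extracted with version 10.7.3.1 of Agilent's software. The authors' deposited table holds log2 values of 311 miRNAs, with its making not given in the sources used. Its columns share 1 set of sorted values (tolerance 0.01) with a median of 6.54, and each follows the order of its array's total gene signal (Spearman 1).

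Features flagged as outliers (2.34% to 3.65% of 13540 per array) were left out, and the rest were averaged per probe. Signals were divided by each array's 75th percentile over 278 probes well above background on all arrays, raised to a common floor of -5.51 (per array the lowest 1% point of probes above background, then the median), and log2 was taken. The brightest probe represented a miRNA. The 238 miRNAs above background on at least 4 of 8 arrays entered limma 3.58.1 (R 4.3.3, adult minus P10, Benjamini-Hochberg). No p is given for miR-378. The number of arrays limits precision, and p-values measure only the spread between these samples.

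For the adult against P10 comparison limma was tested on simulated data (20 draws of 238 miRNAs, 80 changed). It called 71.2% of 2-fold and 93.8% of 4-fold changes, and 4.20% of calls were unchanged miRNAs. Arms were paired with RNAduplex 2.7.2. The members, lists, naming rule and alternatives were chosen with earlier results of these data known. The listed miR-218, miR-216b and miR-208b were read under the array's names miR-218a, miR-216b-5p and miR-208b-3p. The rule named the 5 miRNAs most like miR-378, the measured members of the metabolic intron list, and up to 4 called members of each other list. It asked the same likeness for miR-378*, which was not computed because miR-378* was well above background on 1 array only.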

Additional observations from a re-analysis of the deposited data

How the results depend on the processing

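miR-378 was lower in adult in all 27 alternatives, and the ages overlapped in 2. Of these alternatives, 6 leave its value as it was by construction (both filters, the lower floor, the variance model and both blocks). The sign was also fixed in advance wherever arrays were only left out, since every adult array lay below every P10 array. Its difference of -1.58 moved by more than the replicate spread (0.54) without scaling (-0.62), with spike-in scaling (-0.55), with normexp and quantile (-0.86) and without P10 replicates 1 and 3 (-1.01), a setting chosen after seeing the data because these arrays held the most gut markers. Leaving out 1 array each gave -1.92 to -1.36. For miR-378*, near background, -0.38 turned to 0.11 when cyclic loess used all probes and 0.55 when it used bright ones, was 0 on P10 replicates 2 and 4 alone, and was -1.31 with total gene signal, -1.10 with a lower floor and -0.73 in the authors' value table (-0.51 to -0.20 leaving out 1 array each). The cause was not tested, except that the floor sets its size. miR-33, not called here, was called higher in adult (0.57) with cyclic loess on bright probes. miR-375, called higher here (0.47), was at -0.30 with quantile normalization, -0.28 with cyclic loess on bright probes, -0.25 with normexp and quantile and -0.41 in the authors' value table. The number of miRNAs called was 113 here, 75 without scaling, 62 on spike-in scaling and 34 after cyclic loess over all probes, and 84 to 138 leaving out 1 array each. Same-numbered arrays correlated at 0.18, -0.09, 0.48 and -0.23 in their deviations from the age means. The best P10 match was the same-numbered array for adult replicates 1 and 3 only. These values do not settle whether the numbers pair the samples, which were compared unpaired. With the replicate number as a block 95 were called. With slide row as a block 90 were called.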

Other observations

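Among the 164 miRNAs well above background on all arrays, 11 had P10 replicates 1 and 3 above replicates 2 and 4. They were miR-378, miR-192, miR-194, miR-150, miR-21, miR-22, miR-26b, miR-28, miR-31, miR-347 and miR-872. Outside the 164, miR-215 and miR-203 also had P10 replicates 1 and 3 above replicates 2 and 4. Among 22 groups of 4 arrays examined for an array standing apart (miR-378, the miRNAs most like it, the metabolic intron list and the gut markers, where all 4 arrays were well above background), 0 had one, where chance gives about 5%.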
